A study of Mus musculus with 6 samples.

Results

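Oligodendrocyte precursor cells (OPCs) carry a set of surface and secreted proteins that read and shape their surroundings: extracellular matrix glycoproteins, a protease inhibitor, a guidance receptor and other membrane proteins. Of the 23038 genes listed for each library, 8 such genes were followed here, found by their symbols alone: Lhfpl3, C1ql1, Matn4, Tnr, Serpine2, Dcc, Luzp2 and Megf11. They were taken as genes known from the precursor stage, and that label was not tested in these data. Cells were mouse primary OPCs (mOPCs), immunopanned from embryos at day 14.5 and transfected in culture with control siRNAs (siNC, 3 libraries) or with siRNAs against Qk (siQk, 3 libraries), and polyadenylated RNA was sequenced 72 h later. The labels name 3 biological replicates per group and 3 different siRNAs for Qk, and which siRNA each siQk library received was not given in the sources used here. Strain, sex and any genetic modification were not given either. These are bulk libraries of a purified culture, so that fewer cells of a type and less RNA per cell cannot be told apart.

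OPCs are the dividing precursors of the myelinating oligodendrocytes of the central nervous system, and many of their surface genes are switched off as the cells mature. Qk encodes the Quaking (Qki) proteins, RNA-binding proteins of the STAR family that bind the RNA sequence ACUAAY (Y is C or U) and act on splicing, stability and transport of mRNAs in this lineage. The comparison of siQk with siNC asks which transcripts differ in level when Qk is reduced.

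Levels are given as RPKM, the tags of a gene relative to its exon length and to the size of its library, and are not corrected for composition. Fold changes are log2 values of siQk over siNC from edgeR's quasi-likelihood test on the tag numbers with TMM scaling, which is such a correction, given with the standard error (SE) and the Benjamini-Hochberg FDR over the 12505 genes tested. Calls required P below 0.01 together with FDR below 0.1. Library totals ranged from 58166490 to 141045937 tags. The smallest library, siNC replicate 1, had 3.1% of its tags on Rn45s, a ribosomal RNA gene, and the other 5 libraries had 0.169% to 0.389%. For a single value, the exact permutation test (two-sided) of 3 against 3 libraries has a smallest possible p of 0.1.

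The targeted gene was checked first. Qk stood at 209, 206 and 163 RPKM in the siNC libraries and at 51.3, 76.6 and 36.2 RPKM in the siQk libraries, so that the groups did not overlap. Its log2 fold change was -1.98 (SE 0.28, FDR 0.0031). Pdgfra, a gene of OPCs, and Olig2 and Sox10, genes of the oligodendrocyte lineage and not of its precursors alone, were all present. Their means in siNC were 82.0, 132 and 158 RPKM in that order. Mag, a myelin glycoprotein of differentiated oligodendrocytes, was present as well, at 55.6 to 174 RPKM in siNC and 15.7 to 40.0 RPKM in siQk. The cultures therefore held a transcript of later stages in both groups, and more of it in siNC.

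All 8 genes passed the filter on low counts, and 4 of them were called: Lhfpl3 and Luzp2 fell, and Serpine2 and Dcc rose. The other 4, Tnr, C1ql1, Matn4 and Megf11, were not called. Over all genes tested, 31.0% were called, 17.2% lower and 13.8% higher in siQk, and the median log2 fold change was 0.010, against -0.018 over the 8 genes. The RPKM ranges of siNC and siQk did not overlap for the same 4 members and for 58.3% of all tested genes. The set as a whole therefore did not move one way, and no test of the count of 4 was made.

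**Figure D1:**
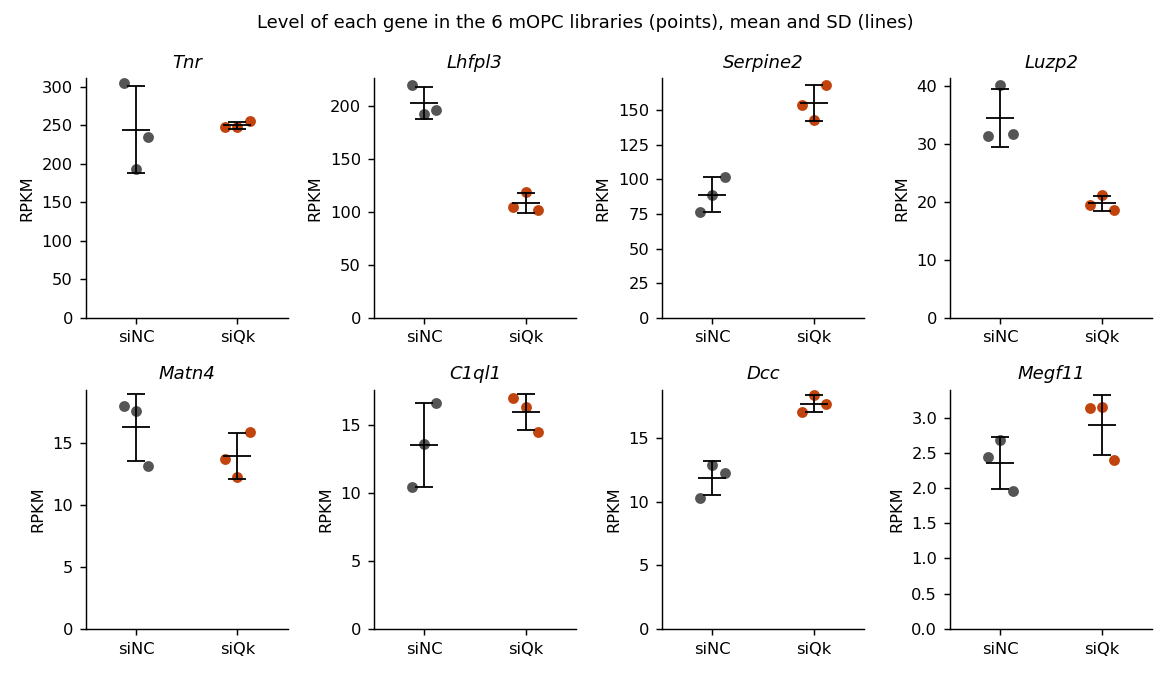
RPKM (vertical axes, each starting at 0) of the 8 genes in the 3 siNC libraries (grey points) and the 3 siQk libraries (orange points), with the mean and SD as black lines. The groups lie apart for Lhfpl3, Serpine2, Luzp2 and Dcc, and overlap for Tnr, Matn4, C1ql1 and Megf11.

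**Figure D2:**
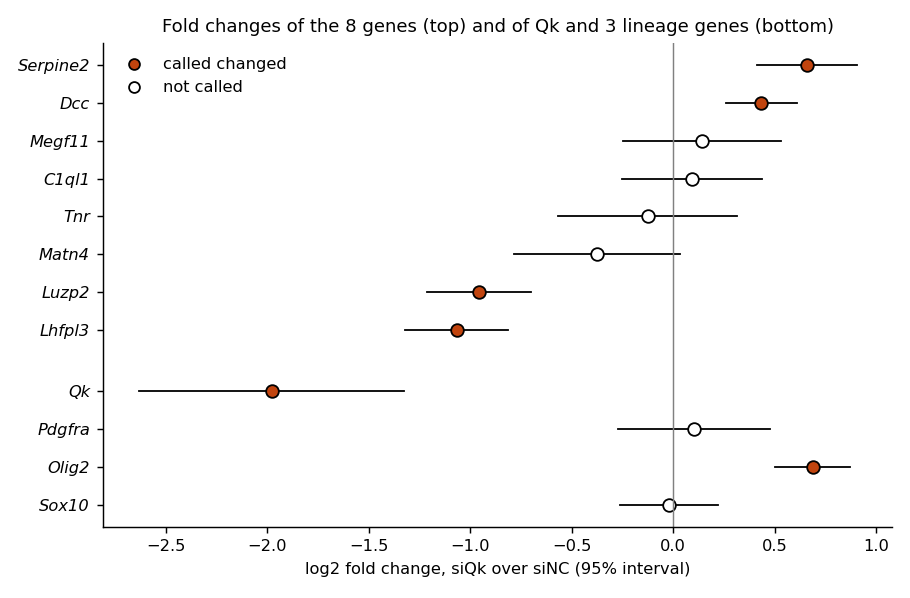
Log2 fold change of siQk over siNC (horizontal axis) with its 95% interval for the 8 genes, and below them Qk, Pdgfra, Olig2 and Sox10, with filled points for genes called changed. Lhfpl3 (-1.07) and Luzp2 (-0.96) lie to the left of 0, Serpine2 (0.66) and Dcc (0.43) to the right, and the intervals of the other 4 members reach 0.

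Lhfpl3 and Luzp2, the pair that fell, are both used as markers of OPCs, and the function of either protein in these cells is little known. Lhfpl3 encodes a membrane protein with 4 transmembrane stretches, of the lipoma HMGIC fusion partner-like family. It stood at 220, 193 and 197 RPKM in the siNC libraries and at 104, 119 and 101 RPKM in the siQk libraries. Every siQk library was far below every siNC library, and the spread within each group was small, at 203 ± 14.9 (SD, n = 3) and 108 ± 9.38 RPKM (SD, n = 3). The siQk level was 53.2% of the siNC level, and the log2 fold change was -1.07 (SE 0.11, 95% interval -1.32 to -0.81, FDR 0.0012). Among the 12505 genes ordered by RPKM, Lhfpl3 was at rank 194 in siNC and at rank 556 in siQk.

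Luzp2 encodes a leucine zipper protein with a signal peptide. Its level was 31.4, 40.2 and 31.7 RPKM in siNC and 19.4, 21.2 and 18.6 RPKM in siQk. Again the lowest siNC library lay above the highest siQk library, although siNC replicate 2 stood above the other siNC libraries. The means were 34.5 ± 5.0 and 19.7 ± 1.33 RPKM (SD, n = 3 each), the siQk level was 57.2% of the siNC level, and the log2 fold change was -0.96 (SE 0.11, 95% interval -1.21 to -0.70, FDR 0.0016). Within single libraries the ratio of Lhfpl3 to Luzp2 RPKM was 7.01, 4.80 and 6.20 in siNC and 5.38, 5.61 and 5.46 in siQk. These ranges overlapped (difference of the mean log2 ratio -0.11, exact permutation test, two-sided, p = 0.6).

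Both transcripts carry ACUAAY sites in their 3′ untranslated regions (3′UTRs), where Qki proteins are known to bind mRNAs, and the sites are shown because they are the sequence that the reduced protein recognises. Sites were counted as ACTAAC or ACTAAT on the transcript strand of the longest annotated 3′UTR in GENCODE (GRCm38, the assembly also called mm10), and a TAAC or TAAT within 1 to 20 bases on either side was recorded, not counting one inside the site itself. Lhfpl3 had 2 sites in a 3′UTR of 2294 bases, 1 of them with such a neighbour, at chr5:23274387-23274416 and chr5:23274542-23274571 on the plus strand. Luzp2 had 3 sites in 3519 bases, at chr7:55266019-55266048, chr7:55266788-55266817 and, with a neighbour, chr7:55268658-55268687, all on the plus strand. Capitals mark the site and its neighbour, in DNA letters.
Lhfpl3 site 1: gtACTAACaaaataagtaaaaactTAATag
Lhfpl3 site 2: aaagtagttacaACTAACtagctgtcttca
Luzp2 site 1: ttgtgcatagtcACTAATgttgtttcaaga
Luzp2 site 2: cagctattgaaaACTAACattcctcaactc
Luzp2 site 3: aggtattaTAATtatcACTAACtacagcac
Among 10819 tested genes with a 3′UTR of at least 50 bases, 36.2% held ACTAAC or ACTAAT and 15.1% held it with a neighbour, at 0.345 sites per kilobase over all their bases. Lhfpl3 had 0.872 and Luzp2 0.853 sites per kilobase. A match to these letters is a description and not a measured binding site.

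The genes that rose also held such letters, with fewer sites each. Serpine2 had 1 site in 808 bases, at chr1:79794308-79794337 on the minus strand, which is 1.24 per kilobase, and Dcc had 1 in 5356 bases, which is 0.187 per kilobase, neither with a neighbour. By density Serpine2 lay above both genes that fell and Dcc below them, and with 4 genes no test was made. Among the genes that were not called, Tnr had 3 sites in 7516 bases, Megf11 had 1 in 3255 bases, and C1ql1 (469 bases) and Matn4 (263 bases) had 0. The Serpine2 site and the Tnr site with a neighbour, at chr1:159929588-159929617 on the plus strand, are given for comparison.
Serpine2 site 1: taaagttggaaaACTAACgtctcgctggac
Tnr site 3: ttTAACcaatctgtcattgaacACTAATat

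Serpine2 and Dcc were the members that rose. Serpine2 encodes protease nexin-1, a secreted inhibitor of serine proteases such as thrombin, urokinase and tissue plasminogen activator. It stood at 76.3, 88.9 and 101 RPKM in siNC and at 154, 143 and 169 RPKM in siQk. Each siQk library lay above each siNC library. The means were 88.9 ± 12.6 and 155 ± 12.8 RPKM (SD, n = 3 each), and the log2 fold change was 0.66 (SE 0.10, 95% interval 0.41 to 0.90, FDR 0.0044). Its rank by RPKM moved from 739 in siNC to 322 in siQk. RPKM ranges that do not overlap and lie higher in siQk were common, at 41.9% of the tested genes against 16.4% for lower. RPKM carries no correction for composition, and its part in this imbalance was not tested.

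Dcc encodes the receptor through which netrin-1 attracts or repels growing processes. Its RPKM was 10.3, 12.9 and 12.3 in siNC and 17.1, 18.4 and 17.7 in siQk, again with no overlap and with siQk libraries that differed little among themselves. The means were 11.9 ± 1.34 and 17.7 ± 0.660 RPKM (SD, n = 3 each). The log2 fold change of 0.43 (SE 0.074, 95% interval 0.26 to 0.61, FDR 0.0060) was the smallest of the 4 called, and 58.6% of all genes called higher changed by more, against 33.6% for Serpine2. Of the genes called lower, 24.4% changed by more than Lhfpl3 and 29.8% by more than Luzp2.

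Tnr, C1ql1, Matn4 and Megf11 were not called, and their intervals show which changes the data leave possible. Tenascin-R, the product of Tnr, is a matrix glycoprotein of oligodendrocyte-lineage cells that binds lecticans and contactin-1 and takes part in perineuronal nets. Tnr was the member with the highest level in both groups, at 305, 193 and 235 RPKM in siNC and at 248, 248 and 255 RPKM in siQk. The siQk libraries were nearly equal and all fell inside the siNC range, whose top was siNC replicate 1. Its log2 fold change was -0.13 (SE 0.19, 95% interval -0.57 to 0.32, FDR 0.61), and the sign turned without siNC replicate 1 (0.12) and with library size as the only scaling (0.035).

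C1ql1 encodes a secreted C1q-like protein, a ligand of the adhesion receptor Adgrb3 (listed as Bai3). It stood at 10.4, 13.6 and 16.6 RPKM in siNC and 17.0, 16.3 and 14.5 RPKM in siQk. The siNC libraries spread widely and overlapped the siQk libraries, and the log2 fold change was 0.091 (SE 0.15, 95% interval -0.25 to 0.44, FDR 0.64). Without siNC replicate 1 it was -0.032.

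Matn4 encodes matrilin-4, a secreted adaptor of matrix filaments. Its level was 18.0, 17.6 and 13.1 RPKM in siNC and 13.7, 12.2 and 15.9 RPKM in siQk, so that siNC replicate 3 lay among the siQk libraries. The log2 fold change was -0.38 (SE 0.17, 95% interval -0.78 to 0.032, FDR 0.13), and Matn4 was called lower (-0.53, FDR 0.025) once siNC replicate 3 was left out. Megf11, a membrane protein with many EGF-like repeats that acts with Megf10 in the spacing of retinal neurons, had the lowest level of the set, at 2.44, 2.67 and 1.96 RPKM in siNC and 3.14, 3.15 and 2.40 RPKM in siQk. The groups overlapped through siQk replicate 3, and the log2 fold change was 0.14 (SE 0.16, 95% interval -0.25 to 0.53, FDR 0.52).

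The order of the levels changed between the groups. In siNC it ran, by mean RPKM, Tnr (244), Lhfpl3 (203), Serpine2 (88.9), Luzp2 (34.5), Matn4 (16.2), C1ql1 (13.5), Dcc (11.9) and Megf11 (2.36). Neighbours whose ranges over the libraries overlapped were Tnr and Lhfpl3, Matn4 and C1ql1, and C1ql1 and Dcc. Within single siNC libraries, Tnr exceeded Lhfpl3 in all 3, though by 193.1 to 192.9 RPKM in siNC replicate 2. C1ql1 exceeded Dcc in all 3 as well, and Matn4 exceeded C1ql1 in 2. In siQk it ran Tnr (250), Serpine2 (155), Lhfpl3 (108), Luzp2 (19.7), Dcc (17.7), C1ql1 (15.95), Matn4 (13.9) and Megf11 (2.90), where C1ql1 and Matn4 alone among neighbours overlapped. Levels were compared per length of exon as the files give it, which for Tnr was 5395 bases against 12867 exonic bases in GENCODE, for Serpine2 3676 against 8287 and for Matn4 2448 against 5174, so that their place in the order depends on that length, while their fold changes do not.

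The summed level of the 8 genes was 615 ± 56.7 RPKM in siNC and 584 ± 9.35 RPKM in siQk (SD, n = 3 libraries each), and its make-up changed. Lhfpl3 held 32.7%, 34.3% and 32.3% of the sum in the siNC libraries and 18.1%, 20.5% and 17.1% in the siQk libraries. Serpine2 held 11.3%, 15.8% and 16.7% in siNC and 26.7%, 24.6% and 28.4% in siQk. These shares need no scaling between libraries, and for both genes the groups did not overlap, while Tnr held 34.4% to 45.3% in siNC and 42.7% to 43.0% in siQk.

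**Figure D3:**
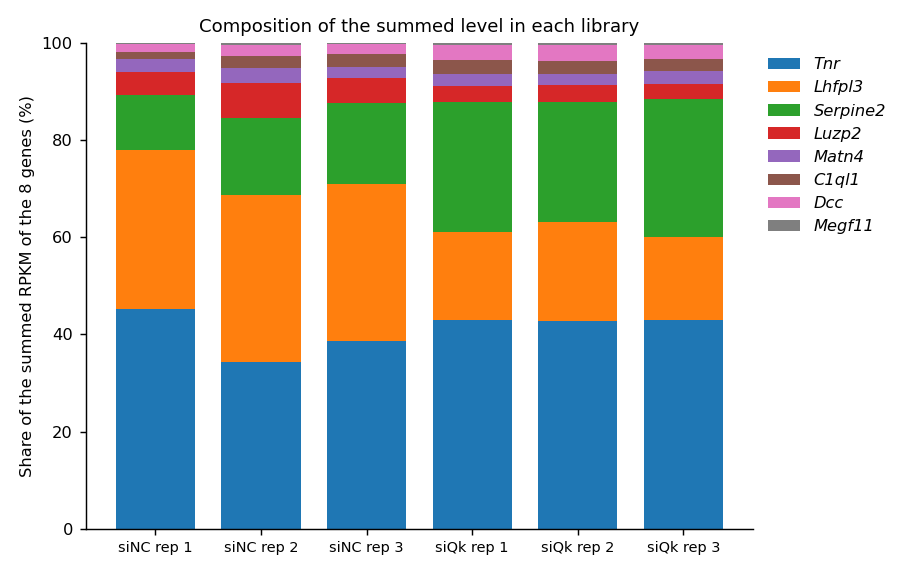
Share of each of the 8 genes in their summed RPKM (vertical axis, percent) in each of the 6 libraries. Lhfpl3 makes up 32.3% to 34.3% of the siNC bars and 17.1% to 20.5% of the siQk bars, and Serpine2 11.3% to 16.7% and 24.6% to 28.4%.

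Ratios within a library to other lineage genes were compared next, since these also need no scaling. Pdgfra, the receptor for platelet-derived growth factor on OPCs, was not called (71.1, 80.9 and 94.1 RPKM in siNC and 98.2, 118 and 76.3 RPKM in siQk, log2 fold change 0.10, FDR 0.64). The log2 ratio to Pdgfra was lower in siQk by 1.15 for Lhfpl3 and by 1.03 for Luzp2 and higher by 0.57 for Serpine2, each without overlap (two-sided exact permutation test, p = 0.1, which is the smallest possible). For Dcc it was higher by 0.35, with overlap (exact permutation test, two-sided, p = 0.2). Against the transcription factor Sox10 (log2 fold change -0.019, FDR 0.89) the differences were -1.05, -0.94, 0.67 and 0.45 for Lhfpl3, Luzp2, Serpine2 and Dcc, all without overlap. Olig2, another transcription factor of the lineage, rose itself (132 ± 9.62 to 236 ± 14.0 RPKM, log2 fold change 0.69, FDR 0.0016), and against it Serpine2 differed by -0.028 with overlap and Dcc by -0.25 without.

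Partners and relatives of the 8 genes were described from lists of known binding partners and paralogs, and the counts are read against the 31.0% of all tested genes. Among 5 tested proteases, receptors and paralogs of Serpine2, 2 fell and 0 rose. Plat, the tissue plasminogen activator that Serpine2 inhibits, fell from 59.9, 60.1 and 64.2 RPKM in siNC to 27.0, 29.1 and 30.9 RPKM in siQk (log2 fold change -1.23, SE 0.074, FDR 3.7e-04). Its siQk libraries all lay below its siNC libraries, the opposite direction to Serpine2. The thrombin receptor F2r stood at 32.8, 15.2 and 15.99 RPKM in siNC and at 10.2, 10.9 and 10.1 RPKM in siQk (-1.21, FDR 0.027), and its call was lost when any of the siQk libraries was left out, while without siNC replicate 1 its fold change was -0.70. Lrp1, an endocytic receptor for serpin and protease complexes, was not called (29.7 to 44.0 and 34.8 to 38.6 RPKM, FDR 0.34). The median log2 fold change of the list was -0.45.

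In the netrin pathway of Dcc, 5 of 18 tested genes fell and 1 rose by edgeR's quasi-likelihood test, with a median log2 fold change of -0.17. DESeq2 called 8 of the 18, and edgeR's exact and likelihood ratio tests called 7 each. Netrin-1, encoded by Ntn1, is the main ligand of Dcc, and it was at 11.0, 13.4 and 17.8 RPKM in siNC and at 7.82, 7.96 and 7.38 RPKM in siQk (-1.01, SE 0.14, FDR 0.0030). Here the ligand fell, in every siQk library, where the receptor rose. Among the other netrin receptors, Dscam rose from 19.3, 27.6 and 18.0 RPKM to 55.4, 48.6 and 54.9 RPKM (1.14, FDR 0.0037), and Unc5b fell from 9.39, 11.4 and 3.89 RPKM to 3.37, 3.48 and 3.53 RPKM (-1.41, FDR 0.025). The siNC replicate 3 value of Unc5b was close to the siQk values, and its call was lost when any siQk library or siNC replicate 1 or 2 was left out. Neo1, the paralog of Dcc, stood at 35.1 to 37.5 and 34.9 to 40.0 RPKM and was not called (FDR 0.34), and nor was Unc5a (FDR 0.14). Of the downstream genes, Wasl, an activator of actin branching, fell by 0.71 on the log2 scale (FDR 7.1e-04). The small GTPase genes Rac1 (-0.60) and Cdc42 (-0.33) fell as well. Those 2 lost their calls when any siQk library was left out, Cdc42 also under upper quartile or library size scaling. Fyn, the list's gene with the highest level, stood at 227 to 399 RPKM in siNC and 194 to 208 RPKM in siQk, without overlap. It was not called by the quasi-likelihood test (-0.74, P 0.013, FDR 0.038), while DESeq2 and edgeR's exact and likelihood ratio tests each called it.

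**Figure D4:**
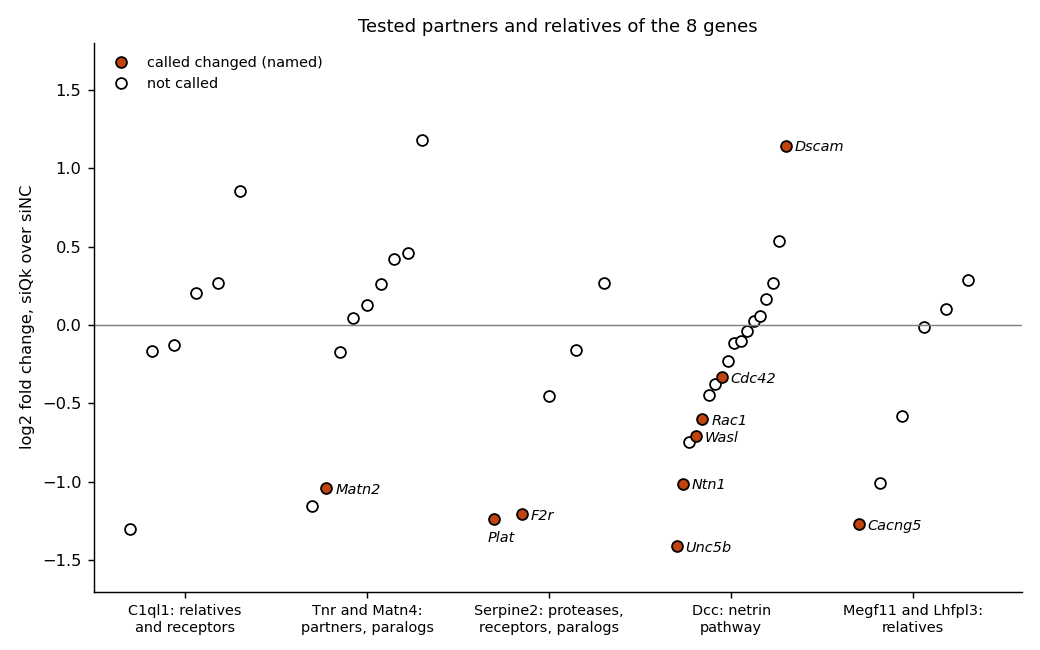
Log2 fold change of siQk over siNC (vertical axis) for the tested genes of 5 lists of partners and relatives, each point a gene, with filled and named points for genes called changed. Among called genes Plat, F2r, Ntn1, Unc5b, Matn2 and Cacng5 lie below -1, and Dscam at 1.14 is the one called gene above 0.

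Of 9 tested matrix partners and paralogs of Tnr and Matn4, 1 fell and 0 rose by edgeR's quasi-likelihood test, with a median log2 fold change of 0.13. DESeq2 called 3 of them, Matn2, Tnc and Ncan, and 5 had an unadjusted P below 0.05. Matn2, the paralog of Matn4, fell from 16.1, 19.2 and 16.9 RPKM to 9.65, 7.14 and 11.4 RPKM (-1.04, FDR 0.0053), without overlap. The contactin gene Cntn1, whose product binds tenascin-R, was at 54.0 to 75.8 RPKM in siNC and 77.6 to 123 RPKM in siQk and was not called (0.46, P above 0.01, FDR 0.091). Ptprz1, a receptor phosphatase of OPCs that binds tenascins, was not called (FDR 0.44), and Tnc, the paralog of Tnr, stood at 0.147 to 0.458 and 0.688 to 1.16 RPKM (FDR 0.079, not called). The Tnr-binding lecticans Bcan, Ncan and Vcan were not called by the quasi-likelihood test either, at log2 fold changes of -0.17, 0.26 and 0.42.

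None of the 6 tested C1q-like relatives and receptors of C1ql1 was called by edgeR's quasi-likelihood test, and 3 had an unadjusted P below 0.05: C1ql3, Cbln2 and Bai1. DESeq2 and edgeR's exact and likelihood ratio tests each called these same 3, and with library size as the only scaling Bai1 alone was called. C1ql3 stood at 4.94, 16.9 and 5.36 RPKM in siNC and at 3.89 to 4.35 RPKM in siQk, with siNC replicate 2 far above the rest, and Cbln2 at 4.35 to 10.7 and 12.5 to 17.4 RPKM. Bai3, the C1ql1 receptor, stood at 10.8, 12.9 and 16.7 RPKM in siNC and at 12.7, 13.2 and 13.9 RPKM in siQk (-0.17, SE 0.13, FDR 0.34), and Bai2, the list's gene with the highest level, at 38.7 to 46.5 and 40.7 to 48.4 RPKM. Among 6 tested relatives of Megf11 and Lhfpl3, 1 fell by the quasi-likelihood test. This was Cacng5, an auxiliary subunit of AMPA receptors, at 41.3, 43.0 and 36.0 RPKM in siNC and 20.2, 13.7 and 21.5 RPKM in siQk (-1.27, FDR 0.0037). Lhfpl2, a relative of Lhfpl3, was not called by that test (-1.01, P 0.012, FDR 0.037). DESeq2 and edgeR's exact and likelihood ratio tests each called Lhfpl2, and its RPKM ranges overlapped. Megf10, the close paralog of Megf11, was at 2.18 to 6.01 and 2.17 to 4.34 RPKM and was not called (FDR 0.32).

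Markers of lineage stages and of other cell types that moved with the groups are given beside these changes, and their part in the changes of the 8 genes was not tested. Their counts too are read against the 31.0% called over all tested genes. Of 16 OPC genes other than the 8, 4 rose and 0 fell, a smaller share than that: Cspg4, encoding the NG2 proteoglycan (0.93), Nkx2-2 (0.90), Olig2 (0.69) and Olig1 (0.43). The call of Olig1 was lost without siNC replicate 2, siQk replicate 1 or siQk replicate 2. The summed level of all 16 OPC genes was 1018 to 1076 RPKM in siNC and 1371 to 1534 RPKM in siQk. Of 19 tested genes of committed and myelinating oligodendrocytes, 11 fell and 1 rose, among them Mobp (-4.59), Mag (-2.58) and Mbp (-2.21), and the sum went from between 6440 and 10526 to between 3045 and 4193 RPKM. All 3 lost their calls without siQk replicate 1 or siQk replicate 2, Mobp also without siQk replicate 3 or siNC replicate 2, and Mbp also without siNC replicate 1 or siNC replicate 2. Mobp stood at 5.12, 25.2 and 1.61 RPKM in siNC, and its fold change ran from -5.31 to -2.98 when single libraries were left out. Sirt2 (-1.84), Cldn11 (-1.35) and Cnp (-1.15) of the same list were called under all 17 alternative settings, while others called lower in it were not. Of 5 tested astrocyte markers, 3 fell: Gfap (-2.95), Slc1a3 (-1.38) and Slc1a2 (-1.06), with sums of 173 to 254 and 131 to 150 RPKM. Aldoc, at means of 94.9 RPKM in siNC and 108 RPKM in siQk, was not called (0.034). Aqp4 was not called either, at means of 0.458 and 0.386 RPKM. Gja1 was not tested, at means of 0.011 and 0.0027 RPKM. Of 5 tested neuron markers, Snap25 rose (2.64), with sums of 107 to 184 and 95.9 to 132 RPKM, and Stmn2 was below 0.05 RPKM throughout. The microglial marker P2ry12 fell (-3.16) from 0.669, 3.20 and 1.19 RPKM to between 0.152 and 0.287 RPKM, while C1qa had no tag in any of the 6 libraries. Fibroblast and vascular markers summed to at most 0.304 RPKM and none was high enough to be tested, with Pecam1 the highest at 0.0416 to 0.148 RPKM.

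The genes most like each called member in pattern were found among 10031 genes with an average logCPM over 3, by the Euclidean distance between log2 CPM values centred on each gene's mean over the 6 libraries. Nearest to Lhfpl3 were Taf13 (distance 0.13) and Pex7 (0.16), and nearest to Luzp2 were Mgst1 (0.099) and Nr3c1 (0.12), the glucocorticoid receptor gene. For Serpine2 they were Parp6 (0.092) and Smarca2 (0.095), and for Dcc Snrk (0.042) and Mapk14 (0.075). These are likenesses over 6 libraries in 2 groups, and many genes share such a pattern.

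The starts of Lhfpl3, Luzp2 and Serpine2, called members, are shown as context for their transcription, and that of Dcc is not shown. Each window runs from 250 bases before to 50 bases after the start in RefSeq (GRCm38.p6) and is read 5′ to 3′ on the gene's strand. The E-boxes CAGCTG and CAGATG, letters that basic helix-loop-helix factors can bind, and ACAAAG, found in motifs of Sox factors, were searched on both strands. CAGCTG occurred 2 times in the Lhfpl3 window, 158 and 149 bases before the start, and 1 time in the Luzp2 window, 27 bases before it, and in 16.3% of 32851 promoter windows of this length. The Serpine2 window held 0 of these but 1 CAGATG (17.2% of windows) and 1 ACAAAG (18.7% of windows). The windows lie at chr5:22745804-22746103 on the plus strand, chr7:54834995-54835294 on the plus strand and chr1:79858616-79858915 on the minus strand, and capitals mark these motifs and, in Luzp2, CCAAT, on either strand.
Lhfpl3: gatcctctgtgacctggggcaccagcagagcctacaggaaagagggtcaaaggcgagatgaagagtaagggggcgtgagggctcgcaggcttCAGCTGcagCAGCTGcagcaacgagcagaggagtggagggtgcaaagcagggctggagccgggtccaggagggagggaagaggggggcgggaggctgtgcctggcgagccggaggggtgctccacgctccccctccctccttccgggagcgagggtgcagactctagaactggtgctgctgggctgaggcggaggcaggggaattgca
Luzp2: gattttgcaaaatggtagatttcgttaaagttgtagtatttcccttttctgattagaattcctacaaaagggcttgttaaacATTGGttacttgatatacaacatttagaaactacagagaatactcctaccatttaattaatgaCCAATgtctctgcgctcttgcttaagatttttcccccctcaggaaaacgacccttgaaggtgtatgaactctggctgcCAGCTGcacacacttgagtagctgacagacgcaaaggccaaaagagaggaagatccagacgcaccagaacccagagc
Serpine2: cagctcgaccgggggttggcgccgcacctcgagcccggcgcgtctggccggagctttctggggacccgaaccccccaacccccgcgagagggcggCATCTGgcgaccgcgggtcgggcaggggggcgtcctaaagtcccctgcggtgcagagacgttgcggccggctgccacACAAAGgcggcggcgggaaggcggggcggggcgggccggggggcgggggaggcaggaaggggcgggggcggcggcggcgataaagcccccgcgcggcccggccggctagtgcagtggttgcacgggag
GC content differed, at 66.0% for Lhfpl3, 41.3% for Luzp2 and 77.7% for Serpine2, against a median of 52.7% over all windows, so that the pair that fell do not share a base composition. No binding was measured in these cells.

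By GENCODE, Lhfpl3 spans chr5:22746059-23275597 on the plus strand, Luzp2 chr7:54835498-55268885 on the plus strand, Serpine2 chr1:79794197-79861180 on the minus strand and Dcc chr18:71253634-72351069 on the minus strand. Tnr lies at chr1:159523769-159931729 on the plus strand, Matn4 at chr2:164389393-164405160 on the minus strand, C1ql1 at chr11:102939264-102946688 on the minus strand and Megf11 at chr9:64385626-64709205 on the plus strand. Exons of Lhfpl3 overlap A930003O13Rik by 567 bases, those of Tnr overlap Gm38039 by 443 bases and those of Matn4 overlap Rbpjl by 149 bases, each on the opposite strand. The library kit does not mark strand, so that tags on these bases cannot be assigned to one gene with certainty.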

How the data were processed

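RNA of mOPCs was measured in 3 siNC and 3 siQk libraries. Paired-end reads had been mapped by the authors with OLego (mm10) and summarised per gene with Quantas, and the versions of both are not given in the sources used here. They deposited, per gene and library, an estimated count of tags without normalization, the exon length, and RPKM, which recomputation showed to be the tags scaled by exon length and library total.

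Estimated counts were rounded and fitted with edgeR 4.0.16 (R 4.3.3), on group alone, with TMM scaling and genes of average logCPM over 0, after the step had been tested on simulated data. Single values were tested with exact permutation tests over every split of the 6 libraries into 3 and 3, in Python 3.11.15 with NumPy 2.4.6. SE is the absolute log2 fold change over the square root of F. Sequences came from GENCODE M21 transcripts (GRCm38) and from RefSeq promoter windows (GRCm38.p6), which matched 5 of the 8 members, and no protein sequences were used. Replicates were compared before averaging, and each was counted once. Their chi-square per degree of freedom was 194 to 342 between siNC libraries and 38.0 to 77.5 between siQk libraries, so the siNC libraries differed more among themselves. Deviations of log2 CPM from the group mean correlated between same-numbered libraries at -0.053, -0.15 and -0.34, and these libraries were not treated as pairs.

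The members and lists were chosen with earlier results of these data known. Named were the 8 members and Qk, up to 4 called genes with the largest change per list or else its most abundant gene, direct partners, Pdgfra, Olig2 and Sox10, and the 2 nearest genes of each called member. C1ql3, Cbln2, Bai1, Rac1, Cdc42, Bcan, Ncan, Vcan, Stmn2, C1qa, Rn45s and the overlapping genes were named after their values were seen, and 1 gene that the rule gives is not reported here. Alternatives were DESeq2 1.42.0, other edgeR tests, scalings, filters and cutoffs, the replicate block, and each library left out.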

Additional observations from a re-analysis of the deposited data

How the results depend on the processing

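The calls of Lhfpl3 and Luzp2 as lower and of Serpine2 and Dcc as higher held in direction under all 17 alternatives and at the call thresholds under 16, the exception being a cutoff of FDR below 0.05 with a log2 fold change of 1 or more in either direction, which left 1 member called lower, Lhfpl3, and 0 called higher (Luzp2 -0.96, Serpine2 0.66, Dcc 0.43) and 946 transcripts over all genes. Leaving out single libraries gave 2478 to 3704 called transcripts, the fewest without siQk replicate 1, and 2 to 3 members called lower and 2 called higher. Fold changes then ranged from -1.13 to -0.96 for Lhfpl3, -1.04 to -0.84 for Luzp2, 0.59 to 0.74 for Serpine2, 0.38 to 0.49 for Dcc, -0.53 to -0.25 for Matn4, -0.28 to 0.12 for Tnr, -0.032 to 0.24 for C1ql1, 0.0021 to 0.26 for Megf11 and -2.29 to -1.76 for Qk. Matn4 was called without siNC replicate 3 (-0.53). C1ql1 (-0.032) and Tnr (0.12) turned sign without siNC replicate 1, and Tnr also with library size only (0.035); the cause was not tested. Over all tested genes, library size alone moved the median log2 fold change from 0.010 to 0.16 and turned the split of calls from 2149 lower and 1730 higher to 1365 and 2989. With upper quartile scaling it was 1785 and 2234. Relative to that median, Lhfpl3 was at -1.07, Luzp2 at -0.97, Serpine2 at 0.64, Dcc at 0.42 and Tnr at -0.13 under library size only, close to the TMM values. With library size only, 1 gene was called higher in each of the C1ql1 (Bai1), Tnr and Matn4 (Ncan), Serpine2 (Serpini1), and Megf11 and Lhfpl3 (Lhfpl4) lists, and 3 neuron markers were.

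With the replicate number as a block, 2796 transcripts were called, 2701 of them also called without it, and the calls of the 8 members were the same, while F2r, Unc5b, Mobp, Mag and Mbp were not called. The numbers are only names here, since same-numbered libraries did not deviate together. Dividing RPKM by the TMM factor gave 238 for Tnr and 16.8 for Dcc in siQk. Against Olig2, a reference chosen after seeing the data, as was Sox10, the log2 ratio differed by -1.75 for Lhfpl3, -1.64 for Luzp2, -1.05 for Matn4, -0.78 for Tnr, -0.58 for C1ql1, -0.54 for Megf11, -0.25 for Dcc and -0.028 for Serpine2, the last of opposite sign to that against Pdgfra, and Olig2 itself rose. Merging all annotated 3′UTR bases changed the count of sites for Qk alone, from 5 to 9. Megf11, at 1275 to 3977 tags per library, was the member with few tags for its length, and its interval allows changes of up to 0.53 on the log2 scale.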

Other observations

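Ratios between members within a library, which carry no scaling between libraries, were computed for all 28 pairs, and 18 of them had ranges that did not overlap between siNC and siQk. The pairs share members and libraries, so that this count is a description. Lhfpl3, the membrane protein, exceeded the secreted inhibitor Serpine2 in every siNC library, with RPKM ratios of 2.89, 2.17 and 1.94, and lay below it in every siQk library, at 0.677, 0.832 and 0.602. The difference of the mean log2 ratio was -1.72 (two-sided exact permutation test, p = 0.1, which is the smallest possible). The guidance receptor Dcc stood at 0.329, 0.321 and 0.388 of the level of Luzp2 in siNC and at 0.883, 0.870 and 0.952 of it in siQk.

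For the pair that rose, the ratio of Serpine2 to Dcc was 7.38, 6.89 and 8.24 in siNC and 9.01, 7.76 and 9.53 in siQk, with overlapping ranges (difference of the mean log2 ratio 0.22, exact permutation test, two-sided, p = 0.2). Of the secreted matrix genes, Matn4 stood at 1.74, 1.36 and 1.07 of the level of Dcc in siNC and at 0.80, 0.664 and 0.898 of it in siQk, although Matn4 was not called on its own.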
